A study of Mus musculus with 24 samples.

Results

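Intestinal organoids are small balls of gut epithelium grown in gel from intestinal tissue, and this comparison sets organoids grown from adult mouse intestine beside organoids grown from fetal mouse intestine of embryonic day 19 (E19). Both were measured on day 3 of culture, with 4 arrays in each group, so 8 of the 24 arrays of the series entered the comparison. The arrays were chosen by their labels alone, as every array of adult or E19 organoids at day 3. All 30675 genes named by a probe set for 1 gene were compared. The other 16 arrays, also 4 in a group, held fetal and adult organoids after 30 days of culture, intestine of newborn mice at postnatal day 0 (P0) and adult intestine. The organoid cultures shared one medium, ENR, which contains the growth factor EGF, the BMP inhibitor Noggin and the Wnt agonist R-spondin. Strain, genotype, sex, adult age and gut segment are not stated in the labels used here, and no drug treatment is named. Total RNA was extracted with Trizol, and 1 µg was turned into biotin-labelled cRNA for hybridisation to Affymetrix arrays.

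The gut lining of a mouse changes its work between birth and weaning. Before weaning, enterocytes take up intact milk proteins by endocytosis and break them down in large lysosomes, digest lactose and milk fat, and carry few of the enzymes of a solid diet. Afterwards they make sucrase and trehalase, absorb fructose, and express the detoxifying enzymes of the adult gut, while Paneth cells, which secrete lysozyme and defensins, fill the crypt base beside the Lgr5-positive stem cells. Growth genes that are imprinted, meaning that only the copy from 1 parent is used, and RNA-binding proteins of the fetus are active before birth and decline in the young animal.

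Every level given here is a log2 signal, every difference is adult minus fetal on that scale, and a gene was called where limma's adjusted p, corrected over all 30675 genes, was under 0.05. The fit took each gene's spread from all 24 arrays. The labels do not say whether the 4 arrays of a group came from separate animals or cultures. The p-values therefore measure only the spread between arrays of a group, pooled over all 6 groups. For a gene uneven only among the fetal day 3 arrays, the pooled spread is smaller than the spread among those arrays. In addition, 4 arrays a group limit how precise each value can be.

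The 8 arrays fell into their groups along the first principal component over all genes, which held 59.8% of the variance. Fetal arrays varied more than adult arrays, with a median SD per gene of 0.16 against 0.12. Fetal arrays 2 and 3 stood apart from fetal arrays 1 and 4, with high levels of stomach and pancreatic digestive genes described further on. Gene groups and genes whose counts or differences rested on them are therefore also given without them. Fetal array 1 carried stomach signal too, with a stomach list mean of 6.68 against 5.09 to 5.75 on adult arrays. Values without fetal arrays 2 and 3 therefore still hold some of that signal. The list mean of fetal array 4, at 5.51, lay within the adult range. Fetal array 1 stood apart on the second component, which held 13.7% of the variance, at 42.2 against -19.3, -17.9 and 5.58 on fetal arrays 2 to 4, and no adult array was above 5.86. The mean of the background probes was higher on the fetal arrays, at 3.43 to 4.04, than on the adult arrays, at 3.25 to 3.37. Fetal array 1 had the highest value. The median of the negative control probes was not higher there, at 3.84 to 4.04 on fetal arrays and 3.99 to 4.17 on adult arrays. Xist and 3 Y-linked genes did not overlap between the groups, with Xist at 10.06 ± 0.28 in fetal and 10.68 ± 0.28 in adult organoids (SD, n = 4) and the Y-linked genes lower by 0.98 to 1.04 in adult organoids, but none of the 4 was called. The part of background signal and of sex in the results was not tested.

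The arrays carried the marker genes of gut epithelium in both groups. Epcam, the adhesion molecule of epithelial cells, averaged 9.74 ± 0.09 in fetal and 9.77 ± 0.07 in adult organoids (SD, n = 4). Vil1, which bundles the actin of the brush border, averaged 9.98 ± 0.25 and 9.84 ± 0.17, and the intestinal master regulator Cdx2 averaged 8.64 ± 0.21 and 8.80 ± 0.11. None of the 3 was called, with adjusted p of 0.84, 0.43 and 0.26. Of 10 identity genes measured, 3 were higher, 1 was lower and 6 were not called, and 2 were higher and 1 lower without fetal arrays 2 and 3. The mean of the list lay between 9.23 and 9.68 on fetal arrays and between 9.49 and 9.62 on adult arrays.

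In all, 4438 genes were higher in adult organoids, 14.5% of those tested, and 3093 were lower, 10.1%. A difference of at least 2-fold was reached by 538 of the higher genes, 1.75% of all, and by 485 of the lower ones, 1.58%. For 7390 genes, 24.1%, the 4 adult values lay wholly above or wholly below the 4 fetal values. The median difference over all genes was -0.01. These shares are the background against which the counts of each gene group below are to be read. Without fetal arrays 2 and 3, 3036 genes were higher and 2217 lower, and 352 and 337 of them reached 2-fold.

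**Figure D1:**
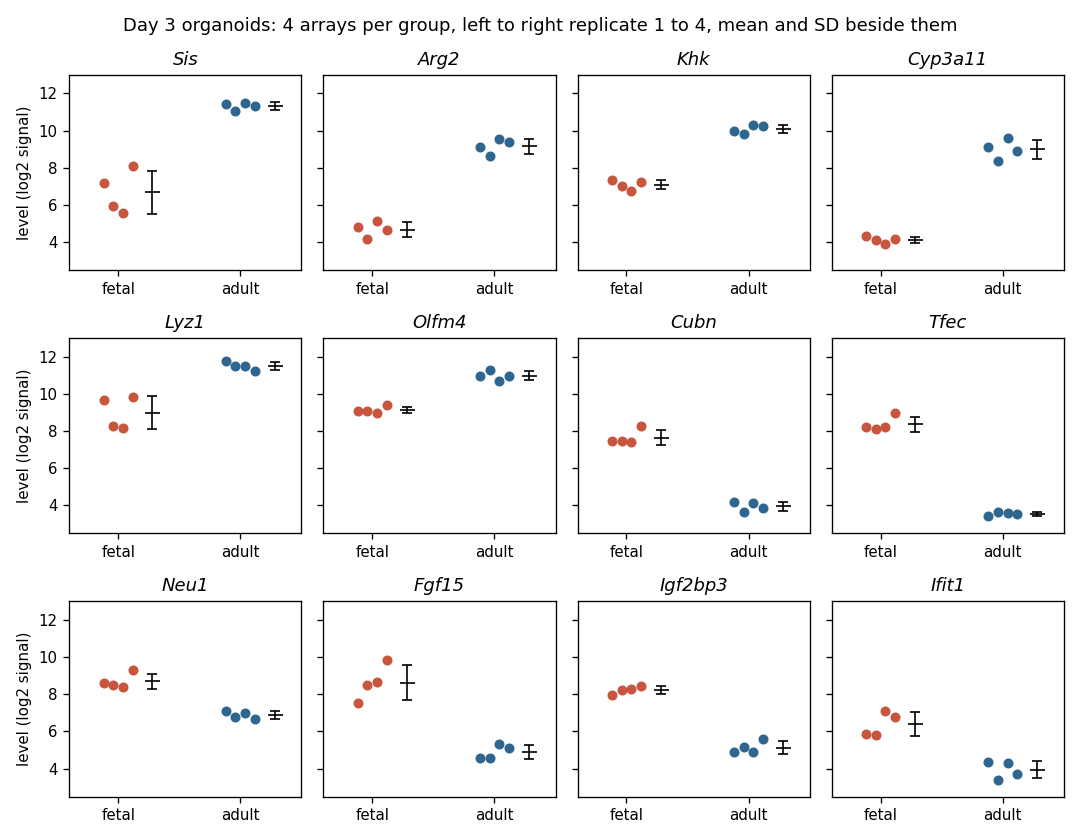
Log2 signal of 12 genes on each day 3 array, with fetal arrays in red and adult arrays in blue, replicates 1 to 4 from left to right, and the group mean with its SD beside the points (n = 4). In every panel the groups do not overlap, and Sis and Lyz1 are lower on fetal arrays 2 and 3 than on fetal arrays 1 and 4.

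Enzymes of sugar digestion separated the groups widely. Sis, sucrase-isomaltase, which splits sucrose and starch fragments, read 7.16, 5.94, 5.58 and 8.09 on fetal arrays 1 to 4 and 11.45, 11.03, 11.48 and 11.31 on adult arrays 1 to 4. The lowest adult array lay far above the highest fetal array, and the difference was 4.63 ± 0.33 (SE), or 24.7-fold, with an adjusted p of 1.9e-09. It was 3.69 without fetal arrays 2 and 3. Treh, trehalase, rose from 4.63 ± 0.21 to 8.01 ± 0.46 (SD, n = 4), a difference of 3.38 ± 0.30 with an adjusted p of 4.7e-08. Lct, lactase, the sugar enzyme of suckling, read 8.05, 7.56, 7.77 and 9.08 in fetal and 7.14, 6.79, 8.40 and 7.13 in adult organoids. The Lct groups overlapped, and its difference of -0.75 ± 0.39 was not called (adjusted p = 0.18), but it was without adult array 3 (-1.09, adjusted p = 0.042). The disaccharidase list thus had 2 of 4 members higher and none lower, the same counts as without fetal arrays 2 and 3.

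Sugar transport and fructose metabolism shared the direction of sucrase. Of 10 genes, 8 were higher, none was lower, and the list median was 1.69. Khk, ketohexokinase, the first enzyme of fructose breakdown, read 7.34, 7.0, 6.77 and 7.23 in fetal organoids and 9.95, 9.82, 10.28 and 10.26 in adult organoids. The groups lay well apart, and the difference was 2.99 ± 0.17 (7.95-fold, adjusted p = 4.5e-11). Slc2a5, the fructose transporter GLUT5, was higher by 2.10 ± 0.26 (adjusted p = 3.6e-06). Fbp1, an enzyme of glucose synthesis, rose from 5.05 ± 0.50 to 8.54 ± 0.43 (SD, n = 4), a difference of 3.49 ± 0.29 with an adjusted p of 2.1e-08. Slc5a1, Slc2a2, Tkfc, G6pc and Slc37a4 were the other members called. Without fetal arrays 2 and 3 the list counted 6 higher and 1 lower, with a median of 1.02.

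Nitrogen metabolism moved in both directions. Arg2, the mitochondrial arginase, read 4.79, 4.16, 5.12 and 4.65 in fetal organoids and 9.10, 8.63, 9.54 and 9.39 in adult organoids. Every adult array was above 8, and the difference was 4.49 ± 0.34 (22.4-fold, adjusted p = 3.6e-09). Otc, which makes citrulline in the urea cycle, was higher by 1.68 ± 0.20 (adjusted p = 2.5e-06). Arg1, the cytosolic arginase, averaged lower by 1.19 on the log2 scale, with a difference of -1.19 ± 0.35 and an adjusted p of 0.014, but its groups overlapped. Arg1 was high only on fetal arrays 2 and 3, at 7.24 and 7.40 against 5.43 and 4.95 on the other fetal arrays. Its difference was -0.12 (adjusted p = 0.67) without both, -0.86 (0.073) without array 2 and -0.81 (0.074) without array 3. Of 9 arginine and proline genes, 4 were higher and 2 lower, and without arrays 2 and 3 the counts were 3 and 1.

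Peptide digestion did not follow sugar digestion as a group. Among 11 brush border peptidases 1 was higher and 2 were lower, with a list median of 0.16, and the counts were the same without fetal arrays 2 and 3. Mme, the peptidase neprilysin, was higher by 2.30 ± 0.33 (adjusted p = 1.8e-05), or by 1.69 without those arrays. Mep1a, the alpha subunit of the protease meprin, read 8.12, 8.04, 8.19 and 8.93 in fetal and 6.20, 6.49, 6.84 and 7.17 in adult organoids. Its difference was -1.65 ± 0.27 (adjusted p = 8.1e-05). Of 12 amino acid and peptide transporters, 2 were higher and 2 lower, and 1 and 1 without fetal arrays 2 and 3. Slc1a1, a glutamate carrier, was higher by 2.14 ± 0.32 (adjusted p = 3.3e-05). Slc6a14, a carrier of neutral and basic amino acids, read 4.64, 6.59, 6.93 and 7.44 in fetal organoids, and all 4 adult arrays lay between 2.79 and 3.01, under the median of the array's negative control probes. It was at least 5.04-fold lower in adult organoids (adjusted p = 2e-06). Its fitted difference, which is no bound, was -3.53, and -4.12 without fetal array 1.

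Drug and steroid metabolism held several of the largest differences. Cyp3a11, a cytochrome P450 that oxidises many drugs, read 4.33, 4.10, 3.93 and 4.15 in fetal organoids and 9.09, 8.34, 9.61 and 8.92 in adult organoids. Its difference was 4.86 ± 0.32 (29.1-fold, adjusted p = 6.1e-10). Its relative Cyp3a25 was higher by 4.70 ± 0.46 (adjusted p = 1.6e-07), and near-identical members of this family can share probe signal. The carboxylesterase Ces2a was higher by 3.20 ± 0.26 (adjusted p = 1.2e-08), and Cyp2b10 by 2.80 ± 0.41 (adjusted p = 2.9e-05), or 2.10 without fetal arrays 2 and 3. In all, 6 of 10 genes of the list were higher and none was lower, with and without those arrays, and the median was 1.68. Nr1i2, the drug receptor PXR, differed by -0.25 and was not called, while Nr1i3, the receptor CAR, was among the 6.

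Other enzymes of the same kind were among the 12 largest rises. Maoa, which oxidises amines such as serotonin, read 6.78, 5.88, 5.4 and 6.03 in fetal and 10.32, 9.53, 10.25 and 9.90 in adult organoids. That was a difference of 3.98 ± 0.26 (15.8-fold, adjusted p = 4.2e-10). Cyp4f14, a fatty acid hydroxylase, was higher by 3.64, Adh6a, an alcohol dehydrogenase, by 3.62, and Ces1f, a carboxylesterase, by 3.60. Nat8f5, of an acetyltransferase family, was higher by 4.35 ± 0.48 (adjusted p = 8.2e-07). The largest of these adjusted p values was 1.3e-05, for Adh6a.

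The endocytic machinery of the neonatal enterocyte was lower in adult organoids. Of 7 genes for uptake of intact protein, 5 were lower and none higher, with and without fetal arrays 2 and 3, and the median was -0.995. Cubn, cubilin, a receptor for many luminal proteins, read 7.45, 7.45, 7.43 and 8.26 in fetal and 4.17, 3.67, 4.12 and 3.86 in adult organoids. The adult mean was under the negative control median, and the gene was at least 11.6-fold lower (adjusted p = 5.1e-09). Dab2, the adaptor that draws cubilin into coated pits, was lower by 2.58 on the log2 scale, a difference of -2.58 ± 0.22 (adjusted p = 2.4e-08). Fcgrt, the neonatal Fc receptor that carries maternal antibody, differed by -1.29 ± 0.26 (adjusted p = 0.00074). Lrp2, the partner receptor megalin, was at least 1.87-fold lower (adjusted p = 9.1e-06). Mamdc4, a glycoprotein of the apical endosomes of suckling enterocytes, read 9.41, 9.43, 9.60 and 10.30 in fetal and 5.81, 5.77, 5.89 and 5.85 in adult organoids. Its difference of -3.85 ± 0.19 was 14.5-fold (adjusted p = 7.6e-12).

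Lysosomal genes moved the same way by smaller steps. Of 22 hydrolases and membrane proteins, 17 were lower and none was higher, against 10.1% of all genes, and the list median was -0.62. There were 18 lower without fetal arrays 2 and 3. Neu1, the sialidase of the lysosome, read 8.58, 8.51, 8.36 and 9.30 in fetal and 7.08, 6.79, 7.0 and 6.64 in adult organoids, a difference of -1.81 ± 0.16 (adjusted p = 3e-08). Lgmn, the protease legumain, differed by -1.59 ± 0.20 (adjusted p = 5.7e-06). Galns, which removes sulfate from glycosaminoglycans, differed by -1.40 ± 0.13 (adjusted p = 6.6e-08), and Ctsl, cathepsin L, by -1.21 ± 0.21 (adjusted p = 0.00019). All 22 differences were below 0, the smallest of them -0.04, for Npc2.

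Transcription factors of the MiT/TFE family bind the E-box CACGTG. The extended form TCACGTGA, the core of the longer CLEAR element, is known from promoters of lysosomal genes. All 4 measured members of the family were lower, at any size of difference. Tfec was by far the most different of them, at 8.20, 8.10, 8.19 and 8.98 in fetal and 3.44, 3.65, 3.58 and 3.52 in adult organoids. The adult values were under the negative control median, so Tfec was at least 19.7-fold lower (adjusted p = 7e-15). The other 3 differed by -0.20 to -0.33. When fetal arrays 2 and 3 were left out, 3 of the 4 were called lower.

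Promoters of lysosomal genes that hold these letters are shown as a description only, and control of these genes by the family was not tested. RefSeq windows on GRCm38.p6, from 250 bases before to 50 bases after the start, were found for 19 of the 22 genes and not for Ctsb, Ctsh and Galns. CACGTG occurred in 5 of their 22 windows (22.7%) against 7.15% of all 32851 windows, in Ctsa, Ctsl, Gla, Lamp1 and Lgmn. TCACGTGA, which contains CACGTG and is counted in both figures, occurred in 2 of 22 windows (9.09%) against 0.974% of all, in Ctsa and Gla. Both motifs read the same on either strand. The stretches of 60 bases below lie before the start of 4 called genes, in the direction of transcription, with each match in capitals. Their positions are chr2:164833713-164833772 on the plus strand for Ctsa, chrX:134601193-134601252 on the minus strand for Gla, chr12:102439102-102439161 on the minus strand for Lgmn and chr13:64370711-64370770 on the minus strand for Ctsl.
Ctsa: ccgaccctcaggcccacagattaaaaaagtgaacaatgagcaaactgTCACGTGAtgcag
Gla: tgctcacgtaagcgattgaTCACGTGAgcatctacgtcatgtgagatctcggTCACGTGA
Lgmn: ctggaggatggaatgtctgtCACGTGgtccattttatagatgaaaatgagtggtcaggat
Ctsl: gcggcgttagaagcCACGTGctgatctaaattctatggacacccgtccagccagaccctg
The Gla stretch holds TCACGTGA at 2 places. A match describes these letters only and shows no binding. Ctsa, a protective protein of Neu1, differed by -0.63, and Gla, alpha-galactosidase, by -0.78. Lamp1, the matched gene without a call, differed by -0.23. A stretch of 60 bases before its start, not shown, holds the shorter motif at 3 places. Neu1, with the largest fall of the list at -1.81, had no match.

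Macrophages are also rich in lysosomal proteins, and some of their genes were lower in adult organoids too. In the leukocyte list 7 of 14 genes were lower and 2 higher, and 6 and 1 without fetal arrays 2 and 3. The 2 higher genes were Jchain and Lyz2. The mean level of the list ran from 5.375 to 5.632 on fetal arrays and from 4.896 to 5.285 on adult arrays, without overlap. Its summed linear signal did overlap, at 1138 to 1533 on fetal arrays and 1183 to 1814 on adult arrays. Tyrobp, an adaptor of myeloid receptors, read 6.63, 6.98, 6.96 and 7.0 in fetal and 5.04, 4.89, 5.15 and 4.34 in adult organoids, a difference of -2.04 ± 0.22 (adjusted p = 6.7e-07). Csf1r, the receptor of the macrophage growth factor, averaged 6.01 ± 0.11 and 4.93 ± 0.05 (SD, n = 4), a difference of -1.09 ± 0.13 (adjusted p = 3.6e-06). Ptprc, the pan-leukocyte marker CD45, lay under the negative control median in both groups, as did Cd3g and Jchain. The part of these cells in the lysosomal and interferon results was not tested. In RNA from whole cultures, fewer cells of a type and less RNA per cell cannot be told apart, here and in every result that follows.

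Of the factors that mark the change from suckling to weaning, Prdm1 was called and Maf was not. Prdm1, the repressor Blimp1 of the suckling epithelium, read 6.45, 6.25, 6.41 and 7.09 in fetal and 4.69, 4.80, 4.71 and 4.93 in adult organoids. Its difference was -1.77 ± 0.24 (adjusted p = 1.2e-05). Maf, an activator in differentiated villus cells, overlapped between the groups and differed by -0.43 ± 0.37 (adjusted p = 0.46).

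Bile acid genes had 4 of 10 members lower and none higher, and 3 lower without fetal arrays 2 and 3. Fgf15, the hormone that ileal cells release in response to bile acids, read 7.55, 8.47, 8.67 and 9.82 in fetal and 4.59, 4.56, 5.31 and 5.12 in adult organoids. No arrays overlapped, and its difference was -3.73 ± 0.63 (13.3-fold, adjusted p = 0.00012). Nr1h4, the bile acid receptor FXR, differed by -1.10 ± 0.23 (adjusted p = 0.00086), and Slc51a, a subunit of the basolateral exporter, by -1.40 ± 0.22 (adjusted p = 7.2e-05). Slc10a2, the apical uptake carrier of the ileum, was at least 4.32-fold lower (adjusted p = 0.012). Its fitted difference was -2.43, and without fetal arrays 2 and 3 it was -2.48 and not called (adjusted p = 0.058). Slc10a2 was also the 1 called gene of 4 markers of distal small intestine. Of the others, Osr2 and Guca2a differed by -0.62 and -0.79, and Fabp6 by 1.07. The mean of the distal list overlapped between the groups, at 7.56 to 8.16 on fetal arrays. On adult arrays 1 to 4 it was uneven, at 7.919, 6.553, 7.765 and 6.469. Of 5 markers of proximal small intestine 2 were higher, and none was called without fetal arrays 2 and 3.

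Lipid genes showed no common direction. Of 16 genes for fatty acid uptake and chylomicron assembly, 2 were higher and 3 lower, with a median of 0.00, and 1 and 3 without fetal arrays 2 and 3. Dgat2, which makes triglyceride, averaged 10.30 ± 0.26 and 8.71 ± 0.46 (SD, n = 4), a difference of -1.59 ± 0.23 (adjusted p = 2.5e-05). Plin2, which coats lipid droplets, averaged 10.49 ± 0.38 and 9.07 ± 0.12, a difference of -1.42 ± 0.19 (adjusted p = 9.7e-06). Of 13 genes of the respiratory chain 8 were higher and none lower, with a median of 0.27, and 6 without fetal arrays 2 and 3. Cox7a1, a subunit of cytochrome oxidase, was the 1 member past 2-fold, at 2.16 ± 0.40 (adjusted p = 0.00034).

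Mineral and fluid transport differed gene by gene. Vdr, the vitamin D receptor, read 6.95, 6.68, 6.68 and 7.39 in fetal and 9.70, 9.58, 10.09 and 10.23 in adult organoids, a difference of 2.98 ± 0.19 (7.86-fold, adjusted p = 2.8e-10). S100g, the calcium carrier calbindin-D9k and a known target of Vdr, was higher by 1.76 ± 0.32 (adjusted p = 0.00027). Slc40a1, the iron exporter ferroportin, differed by -1.78 ± 0.31 (adjusted p = 0.00017). Among 11 calcium and iron genes 2 were higher and 3 lower, with and without fetal arrays 2 and 3. Of 11 ion and fluid genes, 6 were higher and 2 lower, and 5 and 1 without those arrays. The water channel Aqp1 was higher by 2.28 ± 0.26 (adjusted p = 1.2e-06), and the membrane-bound carbonic anhydrase Car4 differed by -1.21 ± 0.17 (adjusted p = 1.6e-05). The cytosolic carbonic anhydrase Car2 overlapped between groups and was high only on fetal arrays 2 and 3. Its difference was -2.04 (adjusted p = 0.019) and was not called without both arrays (-0.70, adjusted p = 0.47), without fetal array 2 (-1.54, 0.088), without fetal array 3 (-1.64, 0.078) or without adult array 4 (-1.88, 0.057). Without fetal array 4 it was -2.63 (adjusted p = 0.0025).

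**Figure D2:**
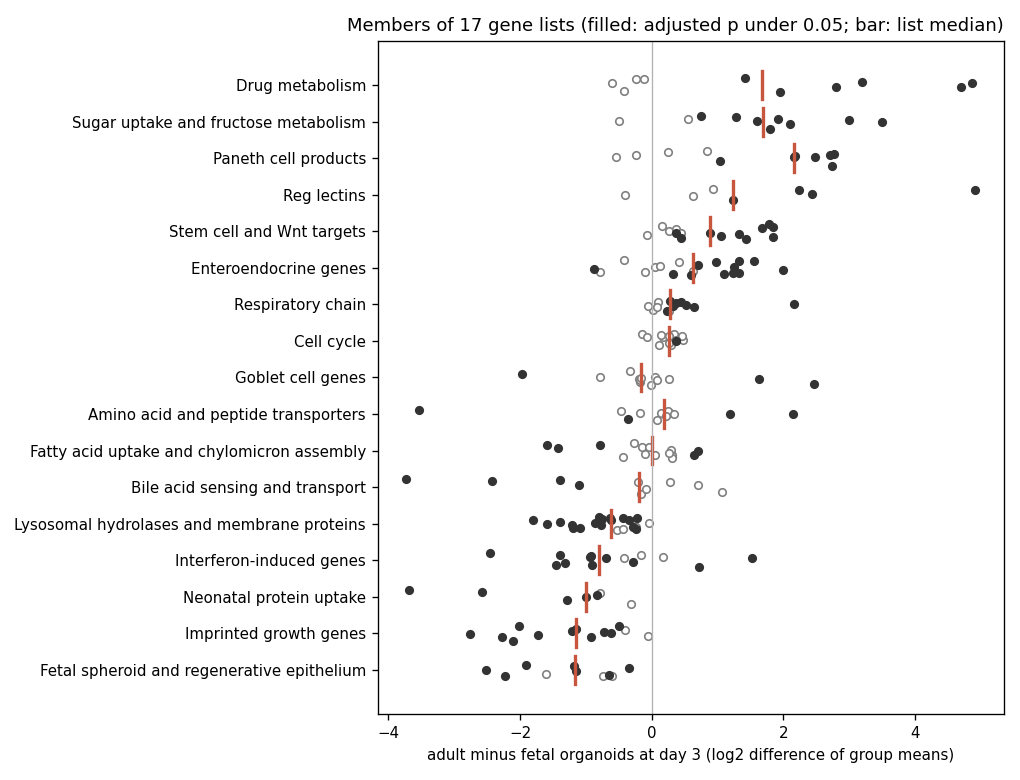
Difference between adult and fetal organoids at day 3 (log2) for each measured member of 17 gene lists, filled where the adjusted p was under 0.05, with a bar at the list median. Sugar, drug metabolism and Paneth cell genes lie mostly to the right, and lysosomal, protein uptake, imprinted and fetal spheroid genes mostly to the left.

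Paneth cell products were higher in adult organoids. Of 11 genes 7 were higher and none lower, against 14.5% of all genes, with a median of 2.15. Lyz1, the lysozyme of Paneth cells, read 9.69, 8.29, 8.15 and 9.83 in fetal and 11.74, 11.49, 11.47 and 11.20 in adult organoids. Fetal arrays 2 and 3 were the lowest, and the difference was 2.48 ± 0.32 (adjusted p = 6.7e-06), or 1.71 without them. Itln1, an intelectin that binds microbial sugars, differed by 2.74 ± 0.36 and by 1.65 without them. Defa21, a defensin whose near-identical relatives can share its probes, differed by 2.77 ± 0.45 and by 1.47 without them. The last 2 had adjusted p of 6.9e-06 and 8e-05. Mmp7, the protease that activates defensins, read 9.68, 8.78, 8.87 and 10.44 in fetal and 10.64, 10.03, 10.56 and 9.89 in adult organoids. Its groups overlapped, and its difference of 0.84 ± 0.36 was not called (adjusted p = 0.1), but it was called without fetal array 4 (1.17, adjusted p = 0.018). Without fetal arrays 2 and 3 the list counted 6 higher, with a median of 1.03. On those arrays the mean level of the list was 7.0, against 8.69 and 8.73 on fetal arrays 1 and 4, and stomach markers were highest there. The part of stomach tissue in this result was not tested.

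Reg proteins are secreted lectins, some of which kill bacteria, and 4 of 7 were higher and none lower, with and without fetal arrays 2 and 3. Reg3a had the largest difference of all genes, at 4.44, 4.78, 4.58 and 4.21 in fetal and 9.44, 9.14, 9.64 and 9.45 in adult organoids. The difference was 4.91 ± 0.32 (30.1-fold, adjusted p = 4e-10). Reg1 was higher by 2.23 ± 0.65 (adjusted p = 0.014). Reg3b was uneven among adult arrays, at 11.11, 8.22, 11.52 and 9.99, all above the fetal arrays at 7.44 to 7.99. Its difference was 2.44 ± 0.60 (adjusted p = 0.004), and 3.10 without adult array 2. Near-identical copies in this family can share probe signal.

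Goblet cells, which make mucus, gave no common direction. Of 13 genes 2 were higher and 1 lower, and 1 and 1 without fetal arrays 2 and 3. Muc2, the gel-forming mucin of the gut, averaged 10.01 ± 0.34 and 9.997 ± 0.37 (SD, n = 4), with an adjusted p of 0.99. Clca1, a protease of the mucus layer, read 10.50, 11.59, 11.54 and 11.27 in fetal and 10.11, 8.40, 9.74 and 8.76 in adult organoids, a difference of -1.97 ± 0.41 (adjusted p = 0.0011). Klk1, a kallikrein, was higher by 2.47 ± 0.29 (adjusted p = 1.7e-06).

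Hormone genes of enteroendocrine cells were mostly higher, but many calls rested on fetal arrays 2 and 3. Of 19 genes 11 were higher and 1 lower with all arrays, and 5 and 2 without those arrays. Gip, the incretin of the upper gut, read 7.95, 7.10, 6.90 and 7.94 in fetal and 9.40, 9.37, 9.55 and 9.56 in adult organoids, a difference of 2.0 ± 0.31 (adjusted p = 5.6e-05). Tac1, which encodes substance P, was higher by 1.56 ± 0.22 (adjusted p = 1.7e-05). Chga, a granule protein of most such cells, was higher by 1.33 (adjusted p = 0.0028), and by 0.99 without arrays 2 and 3, where it was not called (adjusted p = 0.072). Pyy, a hormone of the lower gut, differed by -0.88 ± 0.19 (adjusted p = 0.0017). Of 12 tuft cell genes 2 were higher, and 1 without arrays 2 and 3. Rgs13, a regulator of G-protein signalling found in tuft cells, was at least 2.63-fold higher, since its fetal mean of 2.73 was under the negative control median (adjusted p = 0.00013).

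Stem cell and Wnt target genes were higher as well. Of 15 genes 10 were higher and none lower, with a median of 0.88, and 9 without fetal arrays 2 and 3. Olfm4, a secreted marker of crypt base stem cells, read 9.08, 9.09, 8.98 and 9.39 in fetal and 10.94, 11.28, 10.71 and 10.98 in adult organoids, a difference of 1.84 ± 0.26 (adjusted p = 1.8e-05). Rgmb was higher by 1.67 ± 0.18 (adjusted p = 7.5e-07), and Axin2, a feedback inhibitor induced by Wnt, by 1.43 ± 0.21 (adjusted p = 2.1e-05). Lgr5, the R-spondin receptor of these stem cells, read 6.77, 4.94, 4.95 and 7.10 in fetal and 6.91, 8.33, 7.23 and 8.63 in adult organoids. Its groups overlapped. The Lgr5 difference was 1.84 ± 0.40 (adjusted p = 0.0013), and without fetal arrays 2 and 3 it was 0.84 and not called (adjusted p = 0.088). Smoc2 differed by 1.78 ± 0.29 (adjusted p = 7.3e-05), and by 1.03 without those arrays. Proliferation genes did not separate the groups, with 1 of 13 cell cycle genes higher and none lower. Mki67, the proliferation marker Ki-67, averaged 10.13 ± 0.44 and 10.47 ± 0.20 (SD, n = 4), with an adjusted p of 0.28.

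Genes of the fetal epithelium were lower in adult organoids. Of 10 genes known from fetal spheroids and regenerating epithelium 7 were lower and none higher, with a median of -1.17, and 6 without fetal arrays 2 and 3. Anxa1, an annexin of the injured gut, read 8.08, 8.55, 8.54 and 7.51 in fetal and 7.01, 6.01, 5.95 and 4.81 in adult organoids, a difference of -2.22 ± 0.42 (adjusted p = 0.00042). Msln, mesothelin, differed by -2.51 ± 0.73 (adjusted p = 0.014). It was not called without fetal arrays 2 and 3 (-1.88, adjusted p = 0.17) or without adult array 4 (-2.14, adjusted p = 0.057). Igf2bp3, an oncofetal protein that binds Igf2 and other RNAs, read 7.96, 8.21, 8.28 and 8.43 in fetal and 4.88, 5.18, 4.88 and 5.60 in adult organoids, a difference of -3.09 ± 0.19 (8.49-fold, adjusted p = 2.4e-10). Of 5 oncofetal genes 2 were lower and none higher, with and without fetal arrays 2 and 3. Gpc3, glypican-3, a growth-restraining proteoglycan of the fetus, read 8.5, 8.32, 8.70 and 8.99 in fetal and 4.90, 4.75, 4.71 and 4.72 in adult organoids, a difference of -3.86 ± 0.27 (14.5-fold, adjusted p = 1.2e-09).

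Imprinted growth genes were mostly lower. Of 13 genes 11 were lower and none higher, against 10.1% of all genes, with a median of -1.16, and 10 without fetal arrays 2 and 3. Peg3, a zinc finger protein, read 7.45, 7.83, 8.11 and 7.37 in fetal and 5.03, 4.74, 5.12 and 4.81 in adult organoids, a difference of -2.77 ± 0.23 (adjusted p = 2.3e-08). Grb10, an adaptor that restrains insulin signalling, differed by -2.28 ± 0.13 (adjusted p = 6.1e-11). Plagl1, a zinc finger regulator of the imprinted network, differed by -2.02 ± 0.14 (adjusted p = 1.2e-09), and the growth factor Igf2 by -1.72 ± 0.13 (adjusted p = 2.1e-09). Zim1 and Gnas were the 2 members not called. Mesenchymal markers, whose cells also use several of these genes, were lower in part. Of 13 such markers 8 were lower and none higher, and 3 without fetal arrays 2 and 3. Their summed linear signal was 797 to 1527 on fetal arrays and 481 to 1190 on adult arrays, and Ogn was under the negative control median in both groups. Adult array 1 held the highest adult value of that list, with a mean level of 5.87 against 4.87 to 4.89 on the other adult arrays. On fetal arrays 1 to 4 the mesenchymal list read 5.55, 6.09, 6.26 and 5.72 and the imprinted list 6.30, 6.52, 6.51 and 6.21, so both were highest on arrays 2 and 3. On adult arrays 1 to 4 the imprinted list read 5.12, 5.08, 5.16 and 5.11. The part of mesenchyme in the imprinted result was not tested.

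Most interferon-induced genes were lower. Of 14 genes 9 were lower, 2 higher and 3 not called, the counts of calls were the same without fetal arrays 2 and 3, and the median was -0.80. Ifit1, which binds foreign RNA, read 5.88, 5.81, 7.11 and 6.76 in fetal and 4.33, 3.38, 4.28 and 3.73 in adult organoids. The adult mean was under the negative control median, so Ifit1 was at least 4.59-fold lower (adjusted p = 6e-05). Oasl2 differed by -1.46 ± 0.13 (adjusted p = 4.2e-08). Ifitm3, a membrane protein that blocks viral entry, went the other way, at 7.04, 8.02, 7.94 and 6.75 in fetal and 8.76, 9.16, 8.89 and 9.04 in adult organoids. Its difference was 1.53 ± 0.28 (adjusted p = 0.00033), and its neighbour in the family Ifitm2 was the other higher gene. Ifitm1, of the same family, was among the 9 lower genes, at -0.29. The median of the MHC class I list was 0.13, with 3 of 9 genes higher and none lower. In the MHC class II list 2 of 6 were higher, and none without fetal arrays 2 and 3.

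Among 13 genes of mucosal defence, 2 were higher and 6 lower, and 2 and 4 without fetal arrays 2 and 3. Pigr, which carries IgA across the epithelium, read 9.62, 8.62, 8.54 and 10.01 in fetal and 11.47, 11.43, 11.58 and 11.66 in adult organoids. The difference was 2.34 ± 0.22 (adjusted p = 6.9e-08), and 1.73 without those arrays. Fut2, a fucosyltransferase of the glycocalyx, differed by -2.31 ± 0.45 (adjusted p = 0.00053). Duoxa2, needed for the peroxide-making enzyme Duox2, differed by -2.38 (adjusted p = 0.0075), and without fetal arrays 2 and 3 by -1.93, which was not called (adjusted p = 0.1). The oxidase Nox4 was under the negative control median in both groups, so no fold is given.

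Growth factors, tight junctions and hormone receptors added single large differences. Nrg1, a neuregulin that acts on EGF-family receptors, was at least 2.74-fold lower in adult organoids (adjusted p = 1.2e-09), and 3 of 8 EGF family genes were lower and none higher. Cldn15, a pore-forming claudin that carries sodium, read 6.75, 6.59, 6.16 and 7.06 in fetal and 9.44, 9.43, 9.90 and 9.86 in adult organoids, a difference of 3.02 ± 0.15 (8.11-fold, adjusted p = 1e-11). Cldn4, a sealing claudin, differed by -2.04 ± 0.29 (adjusted p = 1.7e-05). Of 11 claudins 2 were higher and 4 lower, and 1 and 4 without fetal arrays 2 and 3. Nr3c1, the glucocorticoid receptor, was higher by 0.88 ± 0.10 (adjusted p = 6.2e-07), under 2-fold. Slc43a3, a purine carrier, differed by -3.69 ± 0.25 (12.9-fold, adjusted p = 8.3e-10).

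Several of the 12 largest falls were genes that small intestine epithelium is not known for. Cym, chymosin, the milk-clotting protease of the newborn stomach, read 10.56, 12.55, 12.53 and 7.24 in fetal and 6.11, 5.27, 6.99 and 5.55 in adult organoids. Gkn2, gastrokine of the stomach surface, read 6.63, 10.50, 10.38 and 4.45 in fetal and 3.52 to 3.69 in adult organoids, where it was under the negative control median. Tff2, a trefoil peptide of gastric mucous cells, read 10.98, 12.44, 12.36 and 7.65 in fetal and 7.32, 6.86, 5.87 and 7.14 in adult organoids. In all 3 genes fetal arrays 2 and 3 were highest and array 4 was lowest, near the adult arrays. The differences were -4.74 for Cym (adjusted p = 0.00024), at least 15.2-fold lower for Gkn2 (0.00023) and -4.06 for Tff2 (0.0037). With fetal arrays 2 and 3 left out they were -2.92 (adjusted p = 0.02), a fitted -1.93 (0.00065) and -2.51, the last not called (adjusted p = 0.13). With 1 fetal array left out, Cym was -4.13 without array 2, -4.14 without array 3 and -5.90 without array 4. The fitted values for Gkn2, which are no bounds since its adult level is under the negative controls, were -3.54, -3.58 and -5.56, and Tff2 was -5.13 without array 4.

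Stomach markers as a list had 10 of 16 genes lower and 1 higher, and 5 and 1 without fetal arrays 2 and 3. Their mean level on fetal arrays 1 to 4 was 6.68, 8.32, 8.23 and 5.51, against 5.09 to 5.75 on adult arrays, and the summed linear signal was 1150 to 17320 against 825 to 1747. The acid pump genes Atp4a and Atp4b were not called. Pancreatic acinar genes followed the same arrays, with mean levels of 6.28, 7.67, 7.71 and 5.15 in fetal and 5.15 to 6.09 in adult organoids. Of 11 acinar genes 7 were lower and 1 higher with all arrays, and none lower and 1 higher without fetal arrays 2 and 3.

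**Figure D3:**
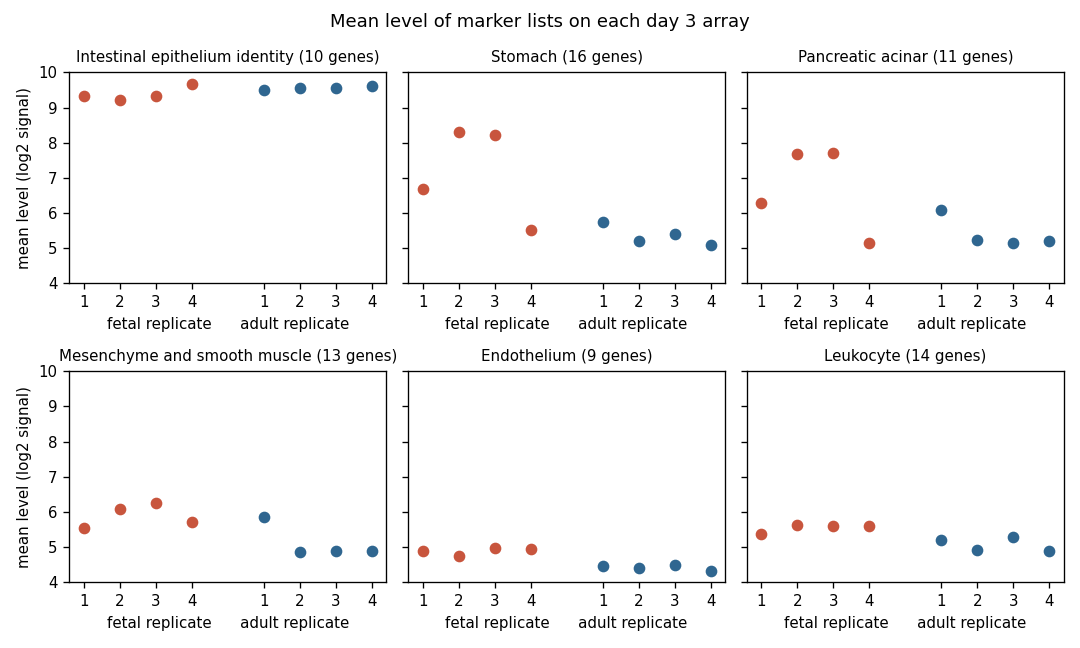
Mean log2 level of 6 marker lists on each day 3 array, fetal replicates in red and adult replicates in blue. Stomach and pancreatic acinar markers are highest on fetal arrays 2 and 3, at 8.32 and 8.23 and at 7.67 and 7.71, and mesenchymal markers are highest among adult arrays on replicate 1, at 5.87.

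Ly6d, Mup20 and Car1 were lower on every adult array than on any fetal array. Ly6d, a surface protein of squamous epithelia and lymphocytes, read 10.15, 10.16, 10.42 and 10.83 in fetal and 6.63, 5.59, 6.31 and 5.42 in adult organoids, a difference of -4.40 ± 0.33 (21.1-fold, adjusted p = 4.2e-09). It was the 1 called gene of 10 squamous markers, among which Trp63, Sprr3, Dsg3 and Dsc3 were under the negative control median in both groups. Mup20, a major urinary protein with near-identical relatives, read 9.66, 8.69, 8.53 and 9.65 in fetal and 5.67, 5.02, 5.73 and 3.72 in adult organoids, a difference of -4.10 ± 0.44 (adjusted p = 6.2e-07). Car1, a carbonic anhydrase of colon epithelium, was at least 6.36-fold lower (adjusted p = 1.8e-06). Among 26 Hox genes, 5 were under the negative control median in both groups. The mean level of the list was 4.66 to 4.87 in fetal and 4.37 to 4.51 in adult organoids. Of the 26, 13 were lower and none higher, with a median of -0.25, and 11 without fetal arrays 2 and 3. Of 9 endothelial markers 6 were lower and none higher, and 5 without those arrays, with summed signal of 276 to 317 on fetal and 194 to 222 on adult arrays.

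How far the day 3 differences lasted was read from the day 30 arrays, which share no array with the day 3 comparison. At day 30, 2087 genes (6.8%) were higher and 665 (2.17%) lower in adult organoids, and 75 and 40 reached 2-fold. The 538 genes higher by 2-fold at day 3 had a median difference of 1.25 at day 3 and 0.59 at day 30, and 224 of them (41.6%) were called higher or lower at day 30. The 485 lower genes had medians of -1.44 and -0.20, and 68 (14.02%) were called at day 30. The difference was closer to 0 at day 30 in 527 of 538 and 483 of 485 genes, a count to which the choice of genes by their day 3 size contributes. The day 3 and day 30 differences themselves differed for 917 genes, 2.99% of all, among them 164 of the 538 (30.5%) and 256 of the 485 (52.8%), genes that day 3 size had selected.

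At day 30, 55 genes were 2-fold higher in both comparisons, which is 10.2% of the day 3 genes and 73.3% of the day 30 genes, and 33 were 2-fold lower in both (6.80% and 82.5%). Without fetal arrays 2 and 3 these were 54 genes, or 15.3% of the day 3 genes, and 30, or 8.90%. None crossed from one side to the other at that size. Over all 30675 genes, 75 were 2-fold higher and 40 2-fold lower at day 30, and 1.75% and 1.58% were so at day 3. Igf2bp3 stayed apart, at 8.05 in fetal and 6.19 in adult organoids at day 30, a difference of -1.86 ± 0.19 (adjusted p = 6.9e-06). Gpc3 differed by -2.33 ± 0.27 (adjusted p = 2.1e-05) and Cubn by a fitted -2.16 ± 0.28 (adjusted p = 6.1e-05). Ifitm3 was higher in adult organoids by 2.72 ± 0.28 at day 30 (adjusted p = 7.1e-06), Rgs13 by 1.90 ± 0.44 (adjusted p = 0.0076), Cox7a1 by 1.64 ± 0.40 (adjusted p = 0.011) and Fbp1 by 1.48 ± 0.29 (adjusted p = 0.0023). Sis, Cyp3a11, Tfec and Reg3a were not called at day 30, with differences of -0.16, -0.52, -0.33 and 0.38. Of the 22 lysosomal genes, 17 lower at day 3, none was lower and 2 were higher at day 30, with a median of 0.02.

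Adult and P0 intestine, again on other arrays, gave a second view of age. In that tissue 4594 genes (15%) were higher in the adult and 3724 (12.1%) lower, and 797 and 765 reached 2-fold. Of the genes 2-fold higher at day 3, 181 were also 2-fold higher in adult tissue, which is 33.6% of the day 3 genes and 22.7% of the tissue genes. Of those 2-fold lower at day 3, 190 were lower in tissue (39.2% and 24.8%), while 11 and 20 went the opposite way. The background for 33.6% and 39.2% is the 797 and 765 of all 30675 genes that reached 2-fold in tissue. For 22.7% and 24.8% it is the 1.75% and 1.58% of all genes that were 2-fold higher and lower at day 3. With fetal arrays 2 and 3 left out, 168 were higher in both, or 47.7% of the day 3 genes, and 148 lower in both, or 43.9%. Sis differed by 6.81 in tissue, Cyp3a11 by 5.95, Lyz1 by 6.28, Mamdc4 by -5.30 and Tfec by -4.90. The lysosomal list had 20 of 22 genes lower and 1 higher in adult tissue, with a median of -1.18, and all 13 imprinted genes were lower there.

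**Figure D4:**
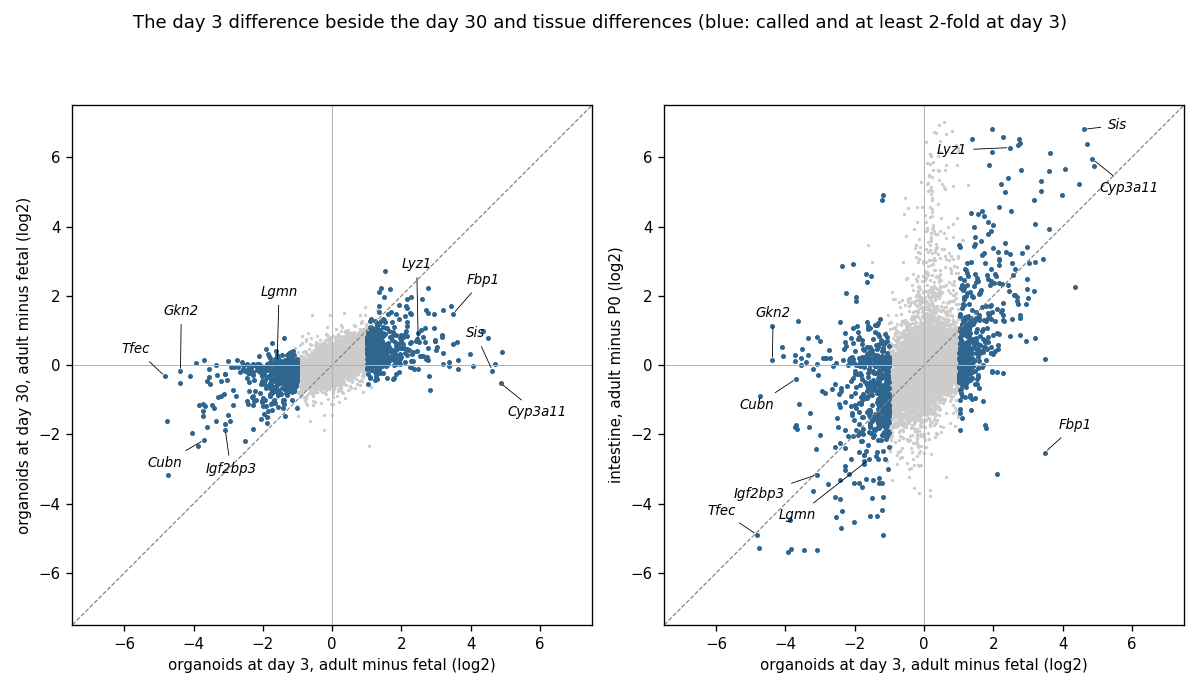
Adult minus fetal difference at day 3 (log2, horizontal) against the difference at day 30 (left) and against adult minus P0 intestine (right) for all 30675 genes, with the genes called at 2-fold at day 3 in blue and the dashed line at equal differences. At day 30 nearly all blue points lie closer to 0 than at day 3 (527 of 538 and 483 of 485), and Fbp1 lies on opposite sides in organoids and tissue.

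Some genes had opposite directions in organoids and tissue. Fbp1, higher by 3.49 in adult organoids, differed by -2.52 ± 0.29 in tissue (adjusted p = 4.8e-07), and S100g, higher by 1.76, differed by -1.74 ± 0.32 (adjusted p = 0.00021). Car4, lower at day 3, was higher by 4.77 ± 0.17 in adult tissue (adjusted p = 8.2e-16), Clca1 by 1.84 ± 0.41 (adjusted p = 0.0016), Duoxa2 by 2.85 ± 0.63 (adjusted p = 0.0014) and Ly6d by 1.14 ± 0.33 (adjusted p = 0.013). Cubn, at least 11.6-fold lower in adult organoids, was not called in tissue, at 10.72 in P0 and 10.33 in adult intestine (adjusted p = 0.31). Tissue holds muscle, vessels and immune cells beside epithelium, and their part in the tissue differences was not tested.

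A tissue maturation score was taken for each organoid array as the mean level of the 797 genes higher in adult tissue minus the mean level of the 765 genes higher in P0 tissue. It is a description with no test. At day 3 the fetal arrays scored -0.14, -0.36, -0.38 and -0.21 and the adult arrays 0.85, 0.73, 1.04 and 0.91. The group means were -0.27 ± 0.12 and 0.88 ± 0.13 (SD, n = 4), 1.16 apart. At day 30 the means were 0.57 ± 0.10 and 0.79 ± 0.03, a gap of 0.22. Leaving out genes of the marker lists kept 785 of the 797 and 738 of the 765 genes, so the score could change little. The gaps were then 1.17 and 0.22.

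**Figure D5:**
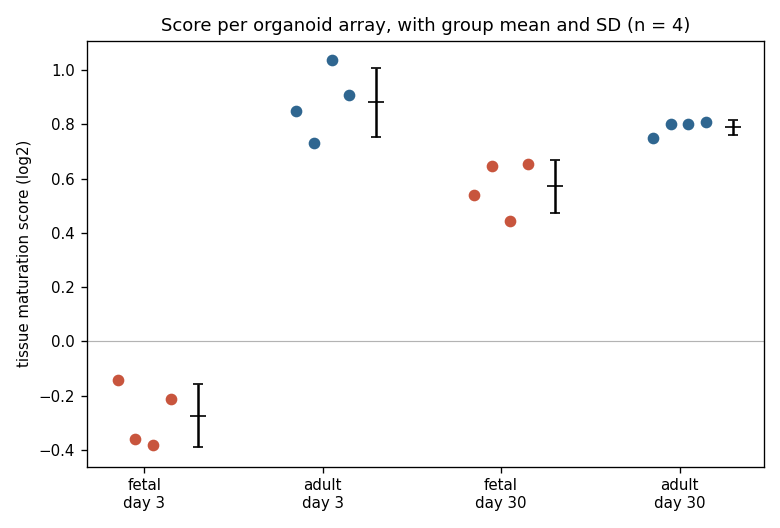
Tissue maturation score (log2) of each organoid array, fetal in red and adult in blue, with the group mean and SD beside the 4 arrays. The groups are 1.16 apart at day 3 and 0.22 apart at day 30.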

How the data were processed

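Per the submitters' processing notes, the authors used Affymetrix Expression Console and RMA, and the deposited value table holds log2 signal. Versions, the genome build and the set of arrays that RMA normalized jointly are not stated in those notes. Of 72688 probe sets, 6732 were controls. Of the other 65956, 31224 named 1 gene through the platform annotation (1140 symbols updated from RefSeq), 1526 named several and were left out, and 33206 had no symbol. Where 435 genes had several probe sets, the one with the highest mean was kept, giving 30675 genes. A linear model over the 6 groups was fitted with limma 3.58.1 in R 4.3.3 (lmFit, eBayes; 18 residual and 4.251 prior degrees of freedom), with Benjamini-Hochberg adjustment, and checked on simulated data. Tables and plots were made with Python 3.11.15, numpy 2.4.6, pandas 2.3.3 and matplotlib 3.10.9. A mean under the negative control median of the arrays was set to that median for a bound ("at least").

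The gene lists and the genes described were chosen with earlier results of these data known. Named genes are a fixed panel, the 12 largest rises and falls among called genes without overlap (predicted or clone-named genes left out), and per list up to 4 called members with the largest difference and up to 2 called against the list's direction. Of 99 genes described in full, 96 follow this rule. Axin2, Igf2 and Csf1r were chosen after their values were seen, as were further list members named in passing. Alternatives covered probe set choice, a low-value filter, the prior, the fit of the day 3 groups alone, scaling, the replicate block, array weights, a stricter threshold and left-out arrays.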

Additional observations from a re-analysis of the deposited data

Results flagged for a closer look

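For 62 of the 99 genes described, the adult minus fetal difference at day 3 differed from that at day 30 (limma interaction, adjusted p under 0.05). Over all 30675 genes, 917 (2.99%) differed. Many of the 99 were chosen by the size of their day 3 difference, and that choice contributes to the count. Values here are the day 3 difference minus the day 30 difference on the log2 scale. Among digestive and metabolic genes they were 4.78 for Sis, 3.30 for Treh, 1.99 for Mme, -2.99 for Slc6a14, 3.70 for Arg2, 1.21 for Otc, 2.01 for Fbp1, 2.54 for Khk and 2.03 for Slc2a5. Among detoxifying enzymes they were 5.38 for Cyp3a11, 4.67 for Cyp3a25, 3.16 for Ces2a, 3.11 for Cyp2b10, 3.66 for Maoa, 3.74 for Cyp4f14, 3.47 for Adh6a, 2.95 for Ces1f and 3.36 for Nat8f5. All of these but Slc6a14 had the larger adult excess at day 3.

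Genes of protein uptake and the lysosome had the larger fetal excess at day 3. The values were -1.53 for Cubn, -2.46 for Dab2, -1.44 for Fcgrt, -0.97 for Lrp2, -2.70 for Mamdc4, -1.49 for Neu1, -1.67 for Lgmn, -1.18 for Galns, -1.40 for Ctsl and -4.50 for Tfec. For lipid, mineral, fluid and junction genes they were -1.17 for Plin2, 2.26 for Vdr, 2.35 for Aqp1, -1.33 for Car4, -1.57 for Cldn4 and 2.51 for Cldn15.

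Paneth, goblet, hormone, stem cell and defence genes gave 4.53 for Reg3a, 1.80 for Lyz1, 2.51 for Itln1, 2.62 for Defa21, 1.55 for Klk1, 1.17 for Tac1, 1.70 for Olfm4, 2.16 for Smoc2, 1.26 for Rgmb, 1.30 for Axin2, 2.23 for Pigr and 0.70 for Nr3c1. Fetal, imprinted and interferon genes gave -1.23 for Igf2bp3, -1.88 for Peg3, -1.99 for Grb10, -0.98 for Plagl1, -1.50 for Igf2, -1.53 for Gpc3, -2.48 for Ifit1, -1.75 for Oasl2 and -1.48 for Nrg1. Genes foreign to small intestine epithelium, the purine carrier and myeloid genes gave -3.88 for Ly6d, -4.20 for Gkn2, -3.79 for Mup20, -2.62 for Car1, -3.83 for Slc43a3, -1.80 for Tyrobp and -1.10 for Csf1r. Some day 3 differences, taken as linear folds, move by over 1.5 times without fetal arrays 2 and 3. They are those of Sis, Mme, Cyp2b10, Lyz1, Itln1, Defa21, Smoc2, Pigr and Gkn2. For Slc6a14, Cubn, Lrp2, Tfec, Ifit1, Nrg1, Car1 and Gkn2, whose adult day 3 mean was under the negative control median, the values are fitted and are no bounds.

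In 11 of 198 groups of 4 arrays, 1 array lay far from the other 3 by Dixon's criterion, which chance meets in about 1 in 20 groups. Fetal array 4 was high for Mep1a (8.93), Otc (8.82), Cubn (8.26), Lgmn (10.13), Tfec (8.98) and Slc40a1 (8.30), and fetal array 1 was low for Tyrobp (6.63). Adult array 2 was low for Ces1f (7.75) and Muc2 (9.44), and adult array 1 was high for Fut2 (5.12) and Car1 (4.07).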

How the results depend on the processing

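Leaving out 1 day 3 array at a time gave 3650 to 4255 genes higher and 2438 to 3138 lower in adult organoids at day 3, 421 to 612 and 422 to 545 at 2-fold, 174 to 197 and 167 to 204 shared with tissue, and 53 to 62 and 32 to 33 shared with day 30. Without fetal arrays 2 and 3, 352 genes were at least 2-fold higher. At an adjusted p under 0.01, 2899 genes were higher and 1897 lower. With calls of any size, 956 were higher and 1123 lower in both day 3 and tissue, and 1633 and 393 in both day 3 and day 30. Of the genes higher at day 3, 488 (11%) were lower in adult tissue, against 12.1% of all genes. Of those lower at day 3, 350 (11.3%) were higher in adult tissue, against 15% of all genes. At day 30 the opposite direction was met by 3 and 10 genes. The score gap was 1.999 at day 3 and 0.34 at day 30 with tissue genes at 4-fold, and 1.60 and 0.35 with medians over genes. The cause of these moves, apart from the arrays, thresholds and genes that each setting takes, was not tested.

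Replicate numbers showed no clear pairing between the day 3 groups, in a check with too few arrays to exclude one. Deviations of same-numbered arrays correlated at -0.01, 0.10, -0.14 and 0.11, and 2 of 4 adult arrays correlated best with their own number. With the replicate number as a block, 4295 genes were higher and 2981 lower, 536 and 483 of them by 2-fold. Calls were 58.9% higher as deposited, 65.5% after centring each array and 49.8% after a second quantile normalization.

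No gene described changed direction while called. Nox4 lost its call in centring, the second quantile normalization, the block, array weights and 6 of the 8 left-out arrays. Arg1 lost it in the day 3 groups alone. At 0.01 Arg1, Slc10a2, Car2, Reg1, Msln and Nox4 were not called. Vil1 gained a call after the second quantile normalization, Mmp7 without fetal array 4 and Lct without adult array 3. Mean of all probe sets, the low-value filter and the trended prior changed no call among the described genes they tested (97 with the filter, 99 otherwise). Low signal limits genes with a group under the negative controls. Their fold is given as a bound, and other differences printed for them are fitted values.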
